A study of Homo sapiens with 8 samples.

Results

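The family of miR-34 and miR-449 joins microRNAs (miRNAs) from separate genes that read similar target sites. Its members here are 6 of the 2006 human miRNAs on the array, chosen by name: hsa-miR-34a-5p, hsa-miR-34b-5p, hsa-miR-34b-3p, hsa-miR-34c-5p, hsa-miR-34c-3p and hsa-miR-449a. They were followed in BT474 and SKBR3, established HER2-positive breast cancer lines labelled as positive and negative for the oestrogen receptor, respectively. The cells had received PBS or 6 µg/mL of trastuzumab, an antibody against HER2, over 144 h, and the series asks which miRNAs respond to it. Labels give 2 biological replicates to each line and treatment, and each RNA was hybridized in 1 colour to its own array. The array labelled SKBR3 PBS replicate 1 equals BT474 PBS replicate 1 in all 62344 spots, so the values below rest on 7 distinct arrays, 4 of BT474 and 3 of SKBR3, with a single PBS array for SKBR3.

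MIR34A has a transcript of its own, MIR34B and MIR34C share another, and the mature miRNAs restrain cell cycle and survival genes. MIR34A is broadly expressed, while the MIR34B and MIR34C locus is best known from lung, airway epithelium and testis and is often silenced by promoter methylation in tumours, and the MIR449 cluster responds to E2F1 and is known from multiciliated cells.

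Mature sequences from RefSeq (GRCh38.p14) were matched for 5 of the 6 members and 5 of 6 relatives by arm or seed. Those of the members and of relatives that share a 5p seed are shown because the seed, bases 2 to 8 in capitals, defines the family and because similar sequences bear on how far probes can tell members apart. The first set shares the seed GGCAGUG.
hsa-miR-34a-5p: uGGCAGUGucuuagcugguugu
hsa-miR-449a: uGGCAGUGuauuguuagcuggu
hsa-miR-449b-5p: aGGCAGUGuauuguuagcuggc
The second set has the same motif moved by 1 base, the seed AGGCAGU.
hsa-miR-34b-5p: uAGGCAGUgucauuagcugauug
hsa-miR-449c-5p: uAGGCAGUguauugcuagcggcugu
hsa-miR-2682-5p: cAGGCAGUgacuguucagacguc
The 3p arms of the MIR34B and MIR34C hairpins have other seeds.
hsa-miR-34b-3p: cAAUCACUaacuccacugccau
hsa-miR-34c-3p: aAUCACUAaccacacggccagg
Aligned with an offset of 1 base, hsa-miR-34a-5p and hsa-miR-34b-5p were identical at 12 of 22 positions (54.5%), with a longest shared run of 9 bases. Without an offset, hsa-miR-34a-5p and hsa-miR-449a were identical at 15 of 22 positions (68.2%), again with a run of 9. The arms hsa-miR-34b-3p and hsa-miR-34c-3p were identical at 17 of 21 positions (81.0%). Cross-hybridization between these members was not tested.

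The genes lie on 3 chromosomes. The mature hsa-miR-34a-5p is at chr1:9151735-9151756 on the minus strand, inside the non-coding host gene MIR34AHG. On the plus strand of chromosome 11, hsa-miR-34b-5p lies at chr11:111512950-111512972 and hsa-miR-34b-3p at chr11:111512987-111513008. Between the MIR34B and MIR34C hairpins lie 417 bases, with hsa-miR-34c-3p at chr11:111513484-111513505, and the annotated spans of MIR34BHG and BTG4 cover both hairpins. On chromosome 5, hsa-miR-449a lies at chr5:55170586-55170607 on the minus strand within the span of CDC20B, as do MIR449B, 23 bases from MIR449A, and MIR449C.

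Each miRNA has 30 spots. The software sums the signals of its probes, gives a detection call, and writes 0.1 where the miRNA is not detected. It called 247 and 254 miRNAs in BT474 with PBS and 248 and 256 with trastuzumab. In SKBR3 it called 203 with PBS and 218 and 201 with trastuzumab. Of the 2006 miRNAs, 173 (8.62%) were detected on all 7 arrays and 1699 (84.7%) on none, so absence of a call was the common state.

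Of the 6 members, 2, hsa-miR-34a-5p and hsa-miR-34b-5p, were detected on all 7 arrays, and the other 4 on none. All 6 relatives, hsa-miR-34a-3p, hsa-miR-449b-5p, hsa-miR-449b-3p, hsa-miR-449c-5p, hsa-miR-449c-3p and hsa-miR-2682-5p, were undetected on all 7 arrays as well. The family therefore gave signal from the 5p arm of MIR34A and, by the detection call, from 1 arm of the MIR34B and MIR34C locus. The 2 detected members rest on unequal evidence: all 30 spots of hsa-miR-34a-5p were well above background on every array, against 3 to 15 of 30 for hsa-miR-34b-5p. Where at least 50% of the spots had to be well above background, hsa-miR-34b-5p passed on 1 of the 7 arrays, SKBR3 trastuzumab replicate 1, and hsa-miR-34a-5p on all 7.

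The guide strand of MIR34A was far above background in both lines. Summed signals of hsa-miR-34a-5p, before any normalization, were 3361 and 4383 in BT474 with PBS and 3651 and 4876 in BT474 with trastuzumab. In SKBR3 they were 2423 with PBS and 2869 and 2637 with trastuzumab. Every BT474 array exceeded every SKBR3 array on this scale, and in BT474 the treatments overlapped. Both probes, A_25_P00012085 and A_25_P00012086, lay above all negative control spots of each array.

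The same signals after quantile normalization gave the opposite order of the lines. Normalized hsa-miR-34a-5p was 3177 in both BT474 cultures with PBS and 3105 and 3177 with trastuzumab. In SKBR3 it was 4270 with PBS and 3804 and 4163 with trastuzumab. All SKBR3 arrays now lay above all BT474 arrays, the SKBR3 PBS array was the highest, and the BT474 treatments could not be separated. The 3 BT474 arrays at 3177 share 1 value because the miRNA held the same rank on each, and equal ranks receive equal values, so the spread between replicates can be understated.

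For hsa-miR-34b-5p, the 5p arm from the chromosome 11 locus, summed signals were 73.9 and 136 in BT474 with PBS and 119.7 and 152 with trastuzumab. In SKBR3 they were 56.5 with PBS and 156 and 126 with trastuzumab. The lines overlapped, and the lowest 2 values were PBS arrays, 1 in each line. Normalized signals were 57.7, 96.5, 104 and 98.7 in BT474, in the same order of arrays, and 137, 189.8 and 189.8 in SKBR3, so that every SKBR3 array lay above every BT474 array.

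**Figure D1:**
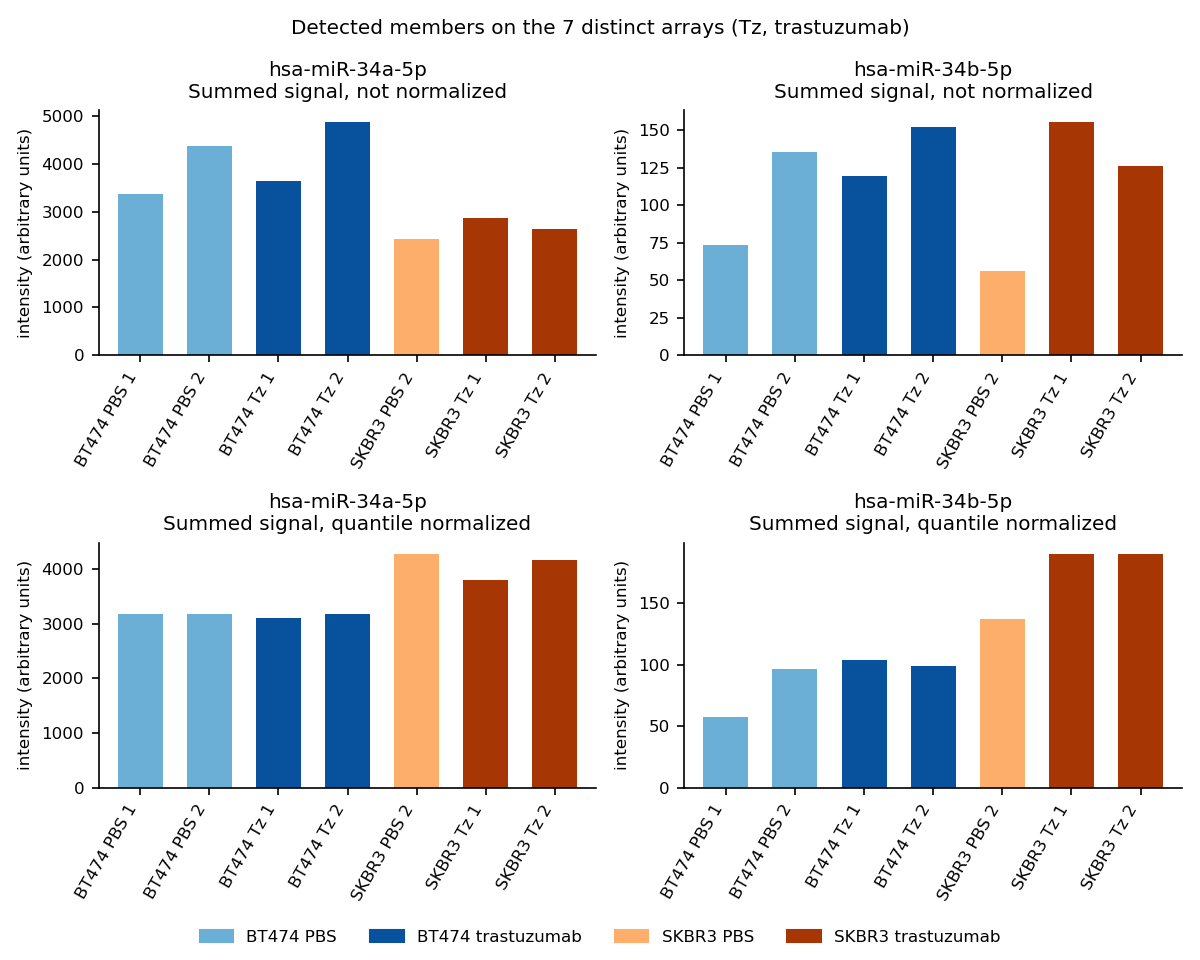
Summed signal (intensity, arbitrary units) of hsa-miR-34a-5p and hsa-miR-34b-5p on the 7 distinct arrays, 1 bar per array, before (top) and after (bottom) quantile normalization. hsa-miR-34a-5p ran from 2423 to 4876 with BT474 above SKBR3 before normalization, and from 3105 to 4270 with BT474 below SKBR3 after it.

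The low PBS values of hsa-miR-34b-5p were those with a probe missing from the sum. On BT474 PBS replicate 1 and SKBR3 PBS replicate 2, the software counted A_25_P00014608 alone, at 73.9 and 56.5, and left out signals of 47.5 and 39.4 from A_25_P00010465. On the other 5 arrays both probes entered. Such omissions were common: a probe was left out for 32.0% to 37.4% of the detected miRNAs of an array. Mean spot intensities of A_25_P00010465, with outlier spots removed, were 224 and 267 in BT474 with PBS, 233 and 284 in BT474 with trastuzumab, 186 in SKBR3 with PBS, and 292 and 259 in SKBR3 with trastuzumab. Those of A_25_P00014608 were 349 and 372, 332 and 435, 266, and 442 and 337, in that order. In BT474 the treatments overlapped at both probes, while in SKBR3 both trastuzumab arrays lay above the single PBS array.

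**Figure D2:**
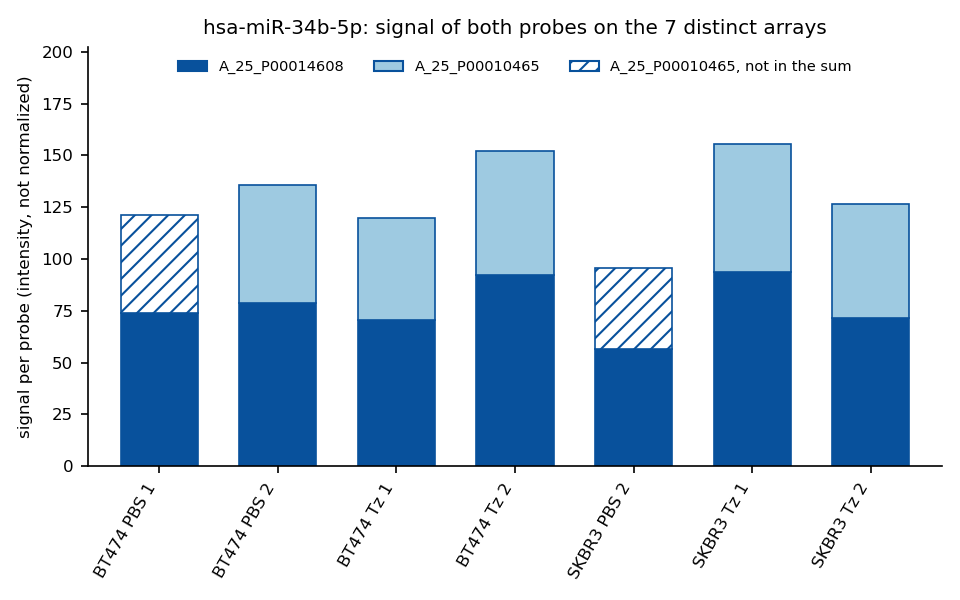
Signal per probe of hsa-miR-34b-5p (intensity, not normalized) on the 7 distinct arrays, stacked, with hatching where the software left a probe out of the summed signal. The hatched signals are 47.5 on BT474 PBS replicate 1 and 39.4 on SKBR3 PBS replicate 2.

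Each probe can also be placed among the negative control spots of its own array, of which 960 to 978 per array were kept. Their medians ran from 19.5 to 48.5 and their upper limits, below which 97.5% of them lay, from 164 to 229.5. The probe means of hsa-miR-34b-5p exceeded 97.3% to 100% of these spots. Probe means ran from -12.3 to 73.3 for hsa-miR-34b-3p and exceeded 23.6% to 76.7% of the negative control spots. For hsa-miR-34c-5p they ran from -42.8 to 13.5 and exceeded 11.1% to 47.0%. For hsa-miR-34c-3p, read by 4 probes, they ran from -97.9 to 26.3 and exceeded 1.33% to 53.6%. No probe mean of these 3 members passed the upper limit of the negative control spots on any array, and those of hsa-miR-449a, at 22.5% to 88.8%, did not either.

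**Figure D3:**
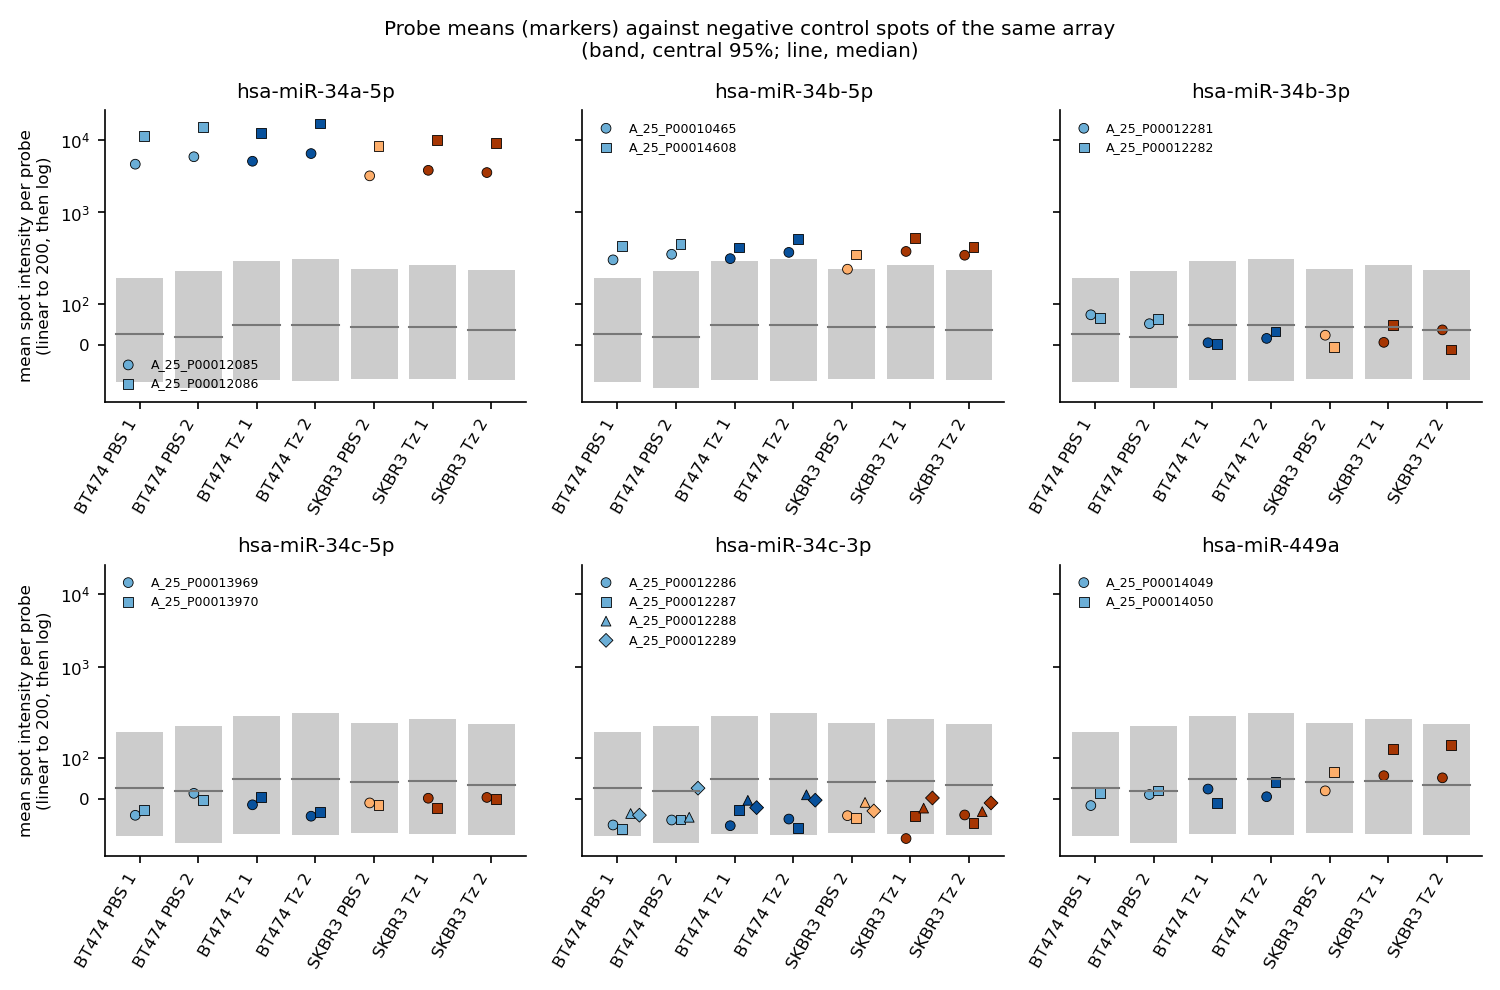
Mean spot intensity of each probe (markers, outlier spots removed, linear axis to 200 and logarithmic above) on the 7 distinct arrays, over the central 95% of the negative control spots of the same array (band, with their median as a line). Probes of hsa-miR-34a-5p lie above every band, those of hsa-miR-34b-5p near or above its upper edge, and those of the 4 undetected members inside or below it.

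Among the 210 spots that each undetected member has over the 7 arrays, the software marked 1 for hsa-miR-34b-3p, 0 for hsa-miR-34c-5p, 2 for hsa-miR-34c-3p and 3 for hsa-miR-449a as well above background. All of these were also marked by the software as outliers, either among replicate spots or for uneven signal within the spot. With outliers removed the number was 0 for each of the 4. Of the 1699 miRNAs detected on no array, 24.6% had at least 1 spot well above background, as a mean over arrays. Of the 210 spots of hsa-miR-34b-5p, 51 were well above background and 47 still were with outliers removed.

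Some of the per-probe values that the authors deposited on the log2 scale stand beside single outlier spots in the scanner files. For A_25_P00012288, a probe of hsa-miR-34c-3p, the deposited values in BT474 were 3.32 on both PBS arrays, which is their floor, and 7.22 and 5.31 on the trastuzumab arrays, a difference of 2.94. The scanner file of BT474 trastuzumab replicate 1 holds 1 outlier spot of 667 for this probe. Its mean was 92.2 with that spot and -3.6 without it. Trastuzumab replicate 2, at the deposited 5.31, had no outlier spot at this probe, and its mean was 10.0. The other 3 probes of hsa-miR-34c-3p had deposited differences of -0.94, 1.05 and 0.66 in BT474, so the probes of 1 miRNA differed in sign. The negative one, at A_25_P00012286, had deposited values of 6.34 and 3.77 with PBS and 3.56 and 4.68 with trastuzumab. Its 6.34 is on BT474 PBS replicate 1, where this probe has an outlier spot of 552. Without outlier spots its means were -64.5 and -52.2 with PBS and -66.3 and -49.9 with trastuzumab.

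Outlier spots also stood beside part of a difference in SKBR3. Probe A_25_P00012282 of hsa-miR-34b-3p had a deposited difference of 1.77 between trastuzumab and the distinct PBS array, and the other probe, A_25_P00012281, one of -0.01. Deposited values of A_25_P00012282 were 4.69 with PBS and 6.34 and 6.57 with trastuzumab. On SKBR3 trastuzumab replicate 1 no spot of this probe was an outlier, and its mean was 48.3. On SKBR3 trastuzumab replicate 2 the mean of A_25_P00012282 was 53.1 with an outlier spot of 969 and -12.3 without it. An outlier spot of 552 likewise took the mean of A_25_P00012286, a probe of hsa-miR-34c-3p, from -64.5 to 12.5 on BT474 PBS replicate 1, the array that the series also holds under an SKBR3 label. How the deposited values treated outlier spots was not tested.

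**Figure D4:**
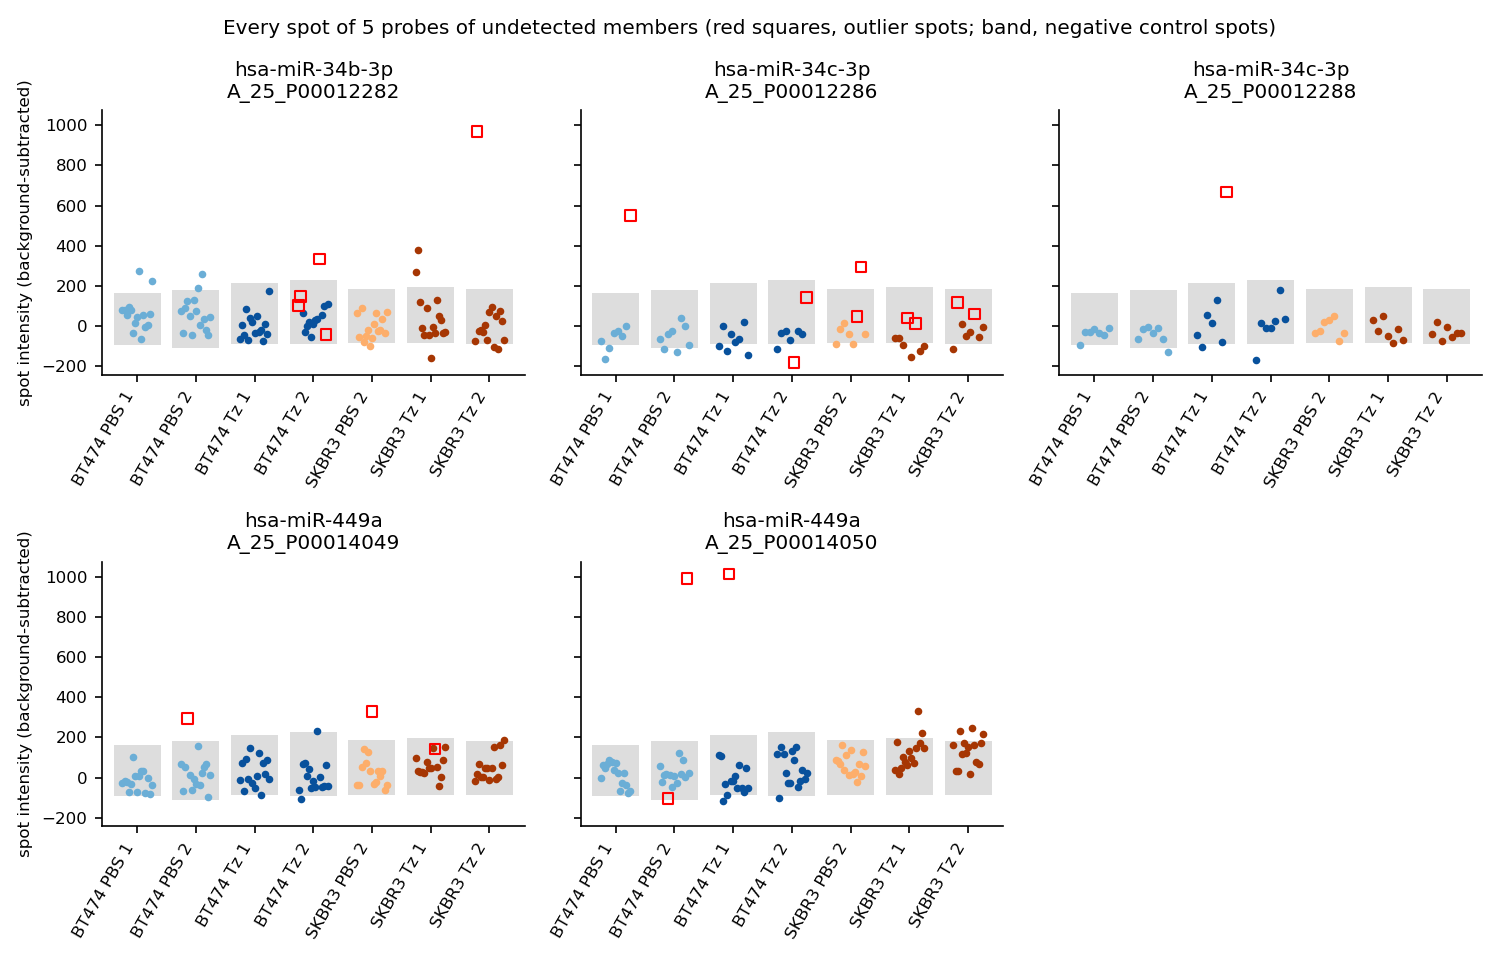
Every spot (background-subtracted intensity) of the 5 probes of undetected members that had a spot well above background, on the 7 distinct arrays, with outlier spots as red squares over the central 95% of the negative control spots. The highest spots, such as 969 for hsa-miR-34b-3p and 667 for hsa-miR-34c-3p, are outliers, and the remaining spots of those probes lie around the band.

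For hsa-miR-449a, an outlier spot of 1014 at A_25_P00014050 took the mean from -11.0 to 57.3 on BT474 trastuzumab replicate 1. On BT474 PBS replicate 2, this probe had 2 outlier spots, 1 of them at 989.6, and a mean of 20.9 without and 77.2 with both. The deposited values there were 6.81 and 6.397. Outlier-free means of A_25_P00014050 were 15.1 and 20.9 in BT474 with PBS, -11.0 and 41.4 in BT474 with trastuzumab, 66.1 in SKBR3 with PBS, and 123 and 132 in SKBR3 with trastuzumab. The second probe, A_25_P00014049, gave -16.5, 10.5, 24.2 and 5.2 in BT474 and 19.8, 57.2 and 51.9 in SKBR3, in the same order. At A_25_P00014050 every SKBR3 array exceeded every BT474 array, at A_25_P00014049 one BT474 array exceeded the SKBR3 PBS array, and none of these means passed the upper limit of the negative control spots of its array. For the mean log2 of spots, outlier spots were left out, the rest quantile normalized, and spots under 10 then set to 10. On this scale hsa-miR-449a lay at 4.22 to 4.61 on the BT474 arrays. On the SKBR3 arrays it lay at 5.18 to 6.16. The difference between the lines was called by limma (adjusted p 0.000843), where 237 of 2006 miRNAs were called. With normexp background correction the adjusted p by limma was 0.00463, where 291 of 2006 were called. Since both lines were undetected by the software, no fold change is given, and the summed signal has no value to test. On the same spot scale the SKBR3 trastuzumab arrays, at 6.16 and 6.05, were above the PBS array at 5.18, without passing the adjusted threshold (adjusted p 0.325, and 0.325 to 0.696 over the spot, normexp and deposited values).

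For hsa-miR-34b-3p the same spot scale gave 5.62 and 5.19 in BT474 with PBS and 4.32 and 4.68 with trastuzumab, and 4.53, 4.57 and 4.85 in SKBR3. The BT474 treatments did not overlap, with PBS higher, and the adjusted p was 0.200 on this scale, 0.0407 with normexp, where 89 of 2006 miRNAs were called, and 0.631 on the deposited values. On the spot scale hsa-miR-34c-3p went the other way in BT474, at 3.37 and 3.68 with PBS and 3.97 and 3.93 with trastuzumab. These treatments did not overlap either, but the values lay near 3.32, the log2 of the floor of 10 for spots. Without outlier spots, most probe means of hsa-miR-34c-3p in BT474 were negative. The adjusted p of hsa-miR-34c-3p by limma was 0.484 on this scale and 0.235 with normexp. It was 0.485 on the deposited values, averaged over its 4 probes. As both members were undetected, no fold change is given.

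Tests were made with limma on log2 of the normalized summed signal, with values under 10 set to 10, and a miRNA was called at a Benjamini-Hochberg adjusted p under 0.05. Members at the floor on all arrays of a fit had no test, which left hsa-miR-34a-5p and hsa-miR-34b-5p in each comparison. The first question was whether the detected members respond to trastuzumab within a line. In BT474, 0 of these 2 members were called, against 41 of 285 miRNAs (14.4%), and 0 had an unadjusted p under 0.05, against 104 of 285. In SKBR3, 0 of the 2 were called, against 15 of 227 (6.61%), and 1, hsa-miR-34b-5p, had an unadjusted p under 0.05, against 68 of 227, from trastuzumab arrays tied in value (0 had one in the joint fit of 4 groups). The study chose miRNAs by a t-test at an unadjusted p under 0.05 together with a fold change above 2. By that rule it lists hsa-miR-34c-3p, undetected here and so without a test, as higher with trastuzumab in BT474. With these limits applied to limma, 0 of the 2 passed in either line after quantile normalization, against 40 of 285 (14.0%) in BT474 and 26 of 227 (11.5%) in SKBR3. Under each of 3 other scalings hsa-miR-34b-5p passed them in SKBR3, with fold changes of 2.20 when scaled to detected miRNAs, 2.48 when scaled to all spots and 2.49 without normalization, where 39, 38 and 37 of the 227 miRNAs passed, in that order. By a t-test with equal variances 26 of 285 and 11 of 227 miRNAs passed, and hsa-miR-34b-5p had no p in SKBR3, where its trastuzumab arrays were equal. The direction of the calls over all miRNAs moved with the scaling. In BT474, 24 were higher and 17 lower with trastuzumab after quantile normalization, 59 and 17 when scaled to all spots, 23 and 35 when scaled to detected miRNAs, and 9 and 10 without normalization. In SKBR3, 7 were higher and 8 lower, against 19 and 7 when scaled to all spots and 10 and 6 without normalization.

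In BT474, hsa-miR-34a-5p differed between trastuzumab and PBS by -0.02 on the log2 scale (SE 0.0540, adjusted p 0.861), and by 0.19 when arrays were scaled to the 75th percentile of all spots, 0.14 without normalization and -0.31 when scaled to the 75th percentile of the detected miRNAs. These 3 settings, called plain scalings here, moved all miRNAs: the median of the 173 miRNAs detected on every array was 0.28, 0.22 and -0.23 in them, and 0 after quantile normalization. Relative to that median, hsa-miR-34a-5p differed by -0.09 under each plain scaling and by -0.02 after quantile normalization. In SKBR3 its difference was -0.10 (SE 0.0943, adjusted p 0.632), equal to the median of the 173, and its sign turned under the plain scalings, to 0.18 when scaled to all spots, 0.18 without normalization and 0.01 when scaled to detected miRNAs. The median of the 173 moved there to 0.35, 0.36 and 0.18, which leaves -0.17 relative to it in each. Its 95% confidence interval in BT474 ran from -0.19 to 0.16 after quantile normalization, from -0.55 to -0.08 when scaled to detected miRNAs and from -0.67 to 0.94 without normalization, and that in SKBR3, with 1 PBS array, from -0.69 to 0.48.

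For hsa-miR-34b-5p in BT474 the difference was 0.44 (SE 0.315, adjusted p 0.455), with both trastuzumab arrays above both PBS arrays. It was 0.07 without PBS replicate 1, 0.85 without PBS replicate 2, and -0.02 when scaled to the 75th percentile of the detected miRNAs. Relative to the median of the 173 it was 0.44 after quantile normalization and 0.21 under each plain scaling. In SKBR3 it was 0.47 (SE 0.0153, adjusted p 0.0658), with both trastuzumab arrays at 1 shared value and no spread of their own. In a joint fit of all 4 groups, which takes the spread from the other groups, the SE was 0.335 (p 0.240, adjusted p 0.420). The plain scalings gave 1.14 when scaled to detected miRNAs, 1.31 when scaled to all spots and 1.31 without normalization, and the copied array under its label gave 1.07. Relative to the median of the 173, the difference was 0.57 after quantile normalization and 0.96 under each plain scaling. When both probes were summed on all arrays, an alternative chosen after the data were seen, the differences became 0.01 in BT474 (adjusted p 0.926) and -0.13 in SKBR3 (adjusted p 0.478). Relative to the median of the detected miRNAs these are 0.00 and -0.03. Other measures that use both probes on all arrays gave positive differences in SKBR3, of 0.30 on the mean log2 of spots, 0.15 with normexp and 0.33 on the deposited values, and none was called. Over all alternatives the adjusted p of hsa-miR-34b-5p ran from 0.0990 to 0.968 in BT474 and from 0.0546 to 0.829 in SKBR3. Both arrays with an omitted probe were PBS arrays, 1 in each line.

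**Figure D5:**
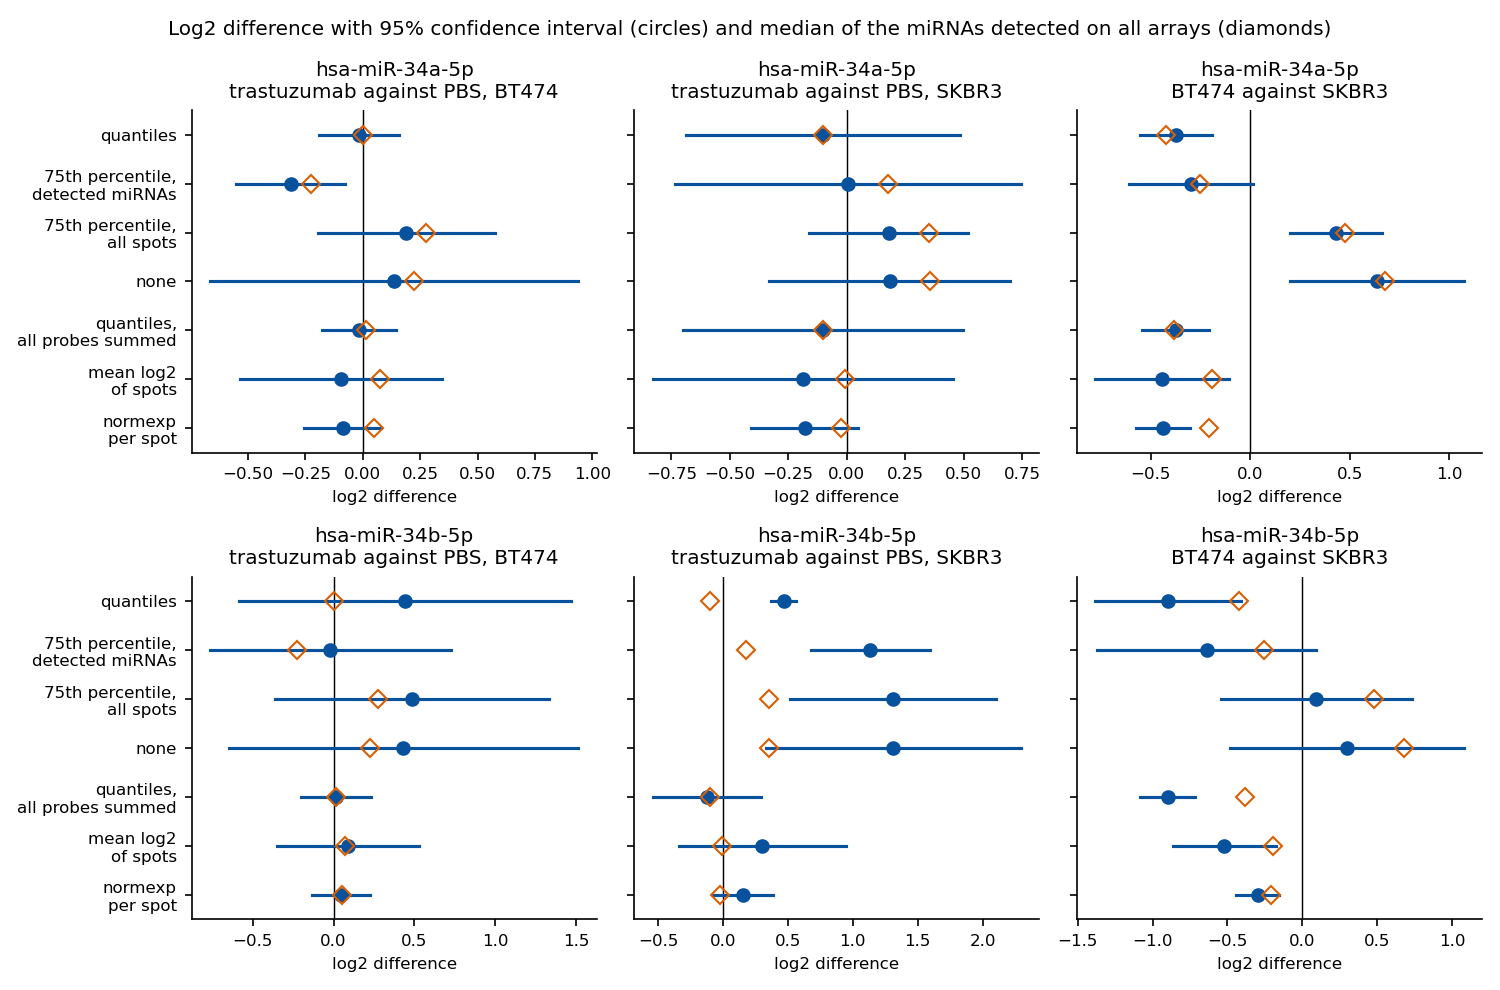
Log2 difference of hsa-miR-34a-5p (top) and hsa-miR-34b-5p (bottom) in 3 comparisons under 7 ways to scale or measure (circles, with 95% confidence intervals), beside the median of the 173 miRNAs detected on all arrays (diamonds). In BT474 against SKBR3, hsa-miR-34a-5p moved from -0.38 to 0.64 with the scaling and the median from -0.42 to 0.68.

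Between the lines, with treatment as a term, both detected members were called lower in BT474: 2 of 2, where 185 of 305 miRNAs (60.7%) were called in either direction and 98 (32.1%) lower in BT474. A call was thus the usual outcome in this comparison, and its direction depended on the scaling, with 87 higher and 98 lower after quantile normalization, 95 and 65 when scaled to detected miRNAs, 137 and 23 when scaled to all spots, and 141 and 14 without normalization. The difference of hsa-miR-34a-5p was -0.38 (SE 0.0705, adjusted p 0.00677) and turned to 0.43 (adjusted p 0.0105) when scaled to all spots and 0.64 (adjusted p 0.0276) without normalization, with adjusted p from 0.000202 to 0.196 over its alternatives. The median of the 173 miRNAs moved alongside, from -0.42 to 0.48 and 0.68, and to -0.26 when scaled to detected miRNAs. Relative to that median, hsa-miR-34a-5p differed by 0.05 after quantile normalization and by -0.04 under each plain scaling, and by -0.25 and -0.23 on the spot mean and normexp values.

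The difference of hsa-miR-34b-5p between the lines was -0.89 (SE 0.191, adjusted p 0.0106), and its sign turned to 0.09 and 0.30 under scaling to all spots and without normalization. Relative to the median of the 173 it was -0.47 after quantile normalization, -0.38 under each plain scaling and -0.52 with both probes summed (-0.90 before the median was taken off, adjusted p 0.000253). On the spot mean and normexp values it was -0.33 and -0.09 relative to the median. With the PBS arrays alone the difference was -0.88 (adjusted p 0.349) and with the trastuzumab arrays alone -0.91 (adjusted p 0.00300), with a range of 0.000253 to 0.736 over all alternatives. For hsa-miR-34a-5p the same subsets gave -0.43 and -0.34. The difference between the 2 members in their line contrast was not tested.

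Whether the response differs between lines was asked with the interaction of line and treatment. For hsa-miR-34a-5p it was 0.09 (SE 0.0972, adjusted p 0.601), with -0.32 when scaled to detected miRNAs and -0.05 without normalization, and for hsa-miR-34b-5p it was -0.03 (SE 0.432, adjusted p 0.990). The latter became -1.15 when scaled to detected miRNAs (adjusted p 0.0950), -0.82 when scaled to all spots, -0.88 without normalization, -0.64 with the copied array and 0.14 with both probes summed, with adjusted p from 0.0736 to 0.993 over its alternatives. By limma, 0 of the 2 members were called, and 0 had an unadjusted p under 0.05 after quantile normalization, against 49 of 305 miRNAs (16.1%) called. Of these 49, 30 had the higher difference in BT474 and 19 the lower, against 16 and 35 when scaled to detected miRNAs, 21 and 19 when scaled to all spots, and 11 and 14 without normalization.

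The position of the arrays on the slide bears on all of these comparisons. The 7 arrays come from 1 slide and 1 scan, where PBS samples took row 2, those with trastuzumab row 1, BT474 columns 1 and 2, and SKBR3 columns 3 and 4. Treatment and slide row cannot be told apart, and neither can line and slide column.

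Over the 7 arrays, hsa-miR-34a-5p had a profile close to that of several other detected miRNAs. By the root mean square difference of normalized log2 values, after each mean was taken off, the nearest of 172 were hsa-miR-4306 (0.0852), hsa-miR-378i (0.0935), hsa-miR-378a-3p (0.105), hsa-miR-200c-3p (0.113) and hsa-miR-185-5p (0.121), where the median of all 172 was 0.453. The neighbours of hsa-miR-34b-5p were farther away, with hsa-miR-335-5p (0.262), hsa-miR-4281 (0.267), hsa-miR-4485 (0.277), hsa-miR-320c (0.289) and hsa-miR-320e (0.306) nearest and a median of 0.598. Neither member was among the 5 nearest of the other.

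Marker miRNAs of epithelium were compared by detection. All 7 on the list were detected on every BT474 array, and hsa-miR-141-3p gave 15077 to 17430. In SKBR3 only hsa-miR-141-3p and hsa-miR-200c-3p were detected on all 3 arrays, and hsa-miR-200a-3p, hsa-miR-200b-3p, hsa-miR-429, hsa-miR-203a and hsa-miR-205-5p on none. Of the 7, 5 were called higher and 1 lower in BT474 after quantile normalization, where 60.7% of all miRNAs were called. The lower one by limma was hsa-miR-200c-3p (-0.58, adjusted p 0.00103). It was not called when scaled to detected miRNAs (-0.29, adjusted p 0.0662). Its sign turned when scaled to all spots (0.44, adjusted p 0.00645) and without normalization (0.65, adjusted p 0.0155). For hsa-miR-141-3p there was no call (0.05, adjusted p 0.643), nor when scaled to detected miRNAs (-0.14, adjusted p 0.414). It was called when scaled to all spots (0.59, adjusted p 0.0274) and without normalization (0.79, adjusted p 0.0163). Of 12 markers of blood, endothelium, stroma, muscle, liver and neurons, 9 were undetected on every array. The rest gave signal in BT474 alone, with list sums of 127 and 241 with PBS and 337 and 528 with trastuzumab, of which hsa-miR-1 gave 127, 173, 286 and 382. Fewer cells of a type and less RNA per cell cannot be told apart in bulk RNA.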

How the data were processed

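The authors deposited scanner files with intensity values as the Agilent Feature Extraction software wrote them, without normalization between arrays: per spot after background subtraction, and summed per miRNA with a detection call. The deposited log2 values are given per probe, and per the authors they were quantile normalized. Their medians per array ran from 5.344 to 5.345 in BT474 and from 5.282 to 5.283 in SKBR3, and their lowest value was 3.32. RNA of BT474 and SKBR3 cells (6 µg/mL trastuzumab or PBS, 144 h) was read on 1 slide in 1 scan. Groups came from the labels, and the array that duplicates another was left out of the main comparisons.

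Summed signals of 2006 miRNAs were quantile normalized over 7 arrays and put on the log2 scale with a floor of 10. limma 3.58.1 in R 4.3.3 compared trastuzumab with PBS within each line, the lines with treatment as a term, and the responses by interaction, with Benjamini-Hochberg adjustment over all miRNAs tested. Outlier spots of the software were left out of probe and spot means. The number of arrays limits precision. Tables came from numpy 2.4.6, pandas 2.3.3 and scipy 1.17.1, and plots from matplotlib 3.10.9, all under Python 3.11.15.

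Members and lists were chosen by name, with earlier results of these data known. Named miRNAs are the members, their arm and seed relatives, and the 5 profiles nearest to each member detected on all arrays. Further lists that the rule names were not used here. miRNAs named from the lists of epithelial and of other cell type markers were chosen after their values were seen. Alternatives were other scalings (75th percentile of detected miRNAs or of all spots, none), a floor of 1, only detected miRNAs, mean log2 of spots, normexp with offset 50, deposited values, a joint fit of 4 groups, a t-test with equal variances, a replicate block, the copied array under its label, and each array left out. Chosen after seeing the data were the sum of all probes, the line comparison within 1 treatment, normexp for undetected members, and leaving out SKBR3 arrays in the joint fit.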

Additional observations from a re-analysis of the deposited data

Results flagged for a closer look

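For 2 of the 7 epithelial and 3 other marker miRNAs tested, where 16.1% of all miRNAs were called, and for neither detected member of the family, the limma interaction of line and treatment was called. The term, BT474 minus SKBR3 on the log2 scale, was 1.11 for hsa-miR-205-5p (adjusted p 0.0135) and 1.01 for hsa-miR-1 (adjusted p 0.0222). Both were undetected and at the floor on every SKBR3 array, so the term equals the difference of BT474 alone, and a difference in response between the lines could not be tested. Under the plain scalings the terms were 0.73 to 1.24 and 0.71 to 1.21, with adjusted p from 0.0183 to 0.0934 and from 0.0256 to 0.226.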

How the results depend on the processing

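Over 19 alternatives, the line difference of hsa-miR-34a-5p was lower in BT474 in 17, with 14 of these called, and that of hsa-miR-34b-5p in 17, with 12 called. Scaling to all spots turned them to 0.43 and 0.094 and no normalization to 0.64 and 0.30, with 1 member called in each. Scaling to detected miRNAs gave -0.30 and -0.64, mean log2 of spots -0.44 and -0.52, and the copied array under its label -0.28 and -0.57, with 0 of 2 called by limma in each. PBS arrays alone gave -0.88 for hsa-miR-34b-5p and 1 call (hsa-miR-34a-5p, 1 SKBR3 array against 2 tied BT474 arrays). Without 1 array the differences ran from -0.40 to -0.33 and from -1.05 to -0.80, with 2 calls except 1 without BT474 trastuzumab replicate 2 (hsa-miR-34b-5p -0.92, adjusted p 0.0530). In BT474 the response of hsa-miR-34a-5p turned to 0.19 (all spots) and 0.14 (no normalization), and that of hsa-miR-34b-5p to -0.019 (detected miRNAs). Without 1 array they ran from -0.04 to 0.00 and from 0.07 (without PBS replicate 1) to 0.85 (without PBS replicate 2). In SKBR3, hsa-miR-34a-5p turned to 0.18 (all spots), 0.18 (no normalization), 0.0052 (detected miRNAs) and 0.11 (copied array), and hsa-miR-34b-5p to -0.13 with all probes summed (highest 1.31). Without SKBR3 trastuzumab replicate 2 the joint fit gave -0.17 for hsa-miR-34a-5p (adjusted p 0.0383) and 1 call. Over both omissions the values ran from -0.17 to -0.03 and from 0.43 to 0.44, a lone array being assumed to vary like other groups. The interaction of hsa-miR-34a-5p turned to -0.32 (detected miRNAs), -0.047 (no normalization) and -0.13 (copied array). That of hsa-miR-34b-5p turned to 0.14 with all probes summed, fell to -1.15 (detected miRNAs), and ran from -0.41 to 0.36 without 1 array, and that of hsa-miR-34a-5p from 0.02 to 0.16. Among undetected members, normexp called 1 in BT474 (hsa-miR-34b-3p, with 89 of 2006 miRNAs called), and normexp and mean log2 of spots called 1 between lines (hsa-miR-449a, with 291 and 237 of 2006). Detection by 50% of spots left 1 member on all arrays. The cause was not tested.

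With a replicate block, hsa-miR-34a-5p and hsa-miR-34b-5p gave -0.02 and 0.44 in BT474, -0.07 and 0.58 in SKBR3 (joint fit), -0.36 and -0.85 between lines, and 0.06 and -0.14 for the interaction, with no member's call changed. Across 173 non-independent miRNAs, deviations from group means of BT474 PBS replicate 1 correlated at 0.297 with BT474 and 0.148 with SKBR3 trastuzumab replicate 1. SKBR3, with 1 PBS array, gave no pair. No label states a pairing. Of all miRNAs the block called 0 in BT474 (73 unadjusted), 22 in SKBR3, 171 between lines and 22 for the interaction.

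Over all miRNAs, the 41 calls in BT474 became 77 (joint fit), 76 (all spots), 89 (normexp), 19 (no normalization), 1 (mean log2 of spots), 3 (t-test), 26 and 25 (without PBS replicate 1 or 2), and 0 by limma on deposited values (181 unadjusted). The 15 in SKBR3 became 47 (joint fit), 26 (all spots), 58 (normexp) and 3 (copied array). By limma they became 0 when scaled to detected miRNAs (43 unadjusted), over detected miRNAs only (60) or on deposited values (144). The t-test gave 0 (22). The joint fit without 1 trastuzumab array changed model and arrays, so its counts are not set against the 15. The 185 of 305 between lines became 291 of 2006 (normexp) and 0 of 305 with the copied array (147 unadjusted). The 49 of the interaction became 6 (mean log2 of spots), 25 (no normalization), 23 (detected only), 5 (copied array), 74 (without BT474 trastuzumab replicate 2) and 29 (without SKBR3 trastuzumab replicate 1). Signals near background limit the results for hsa-miR-34b-5p and the undetected members. Why the counts moved was not tested.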
